A study of Mus musculus with 12 samples.

Results

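NF-κB is a family of paired transcription factors that cells switch on in response to cytokines and bacterial products. In resting cells the pairs are held in the cytoplasm by inhibitor proteins of the IκB family, and a kinase complex marks those inhibitors for destruction when a receptor is engaged. The factors then enter the nucleus, where many of the genes they act on encode their own subunits and inhibitors, so that the system carries feedback loops. In smooth muscle cells of the artery wall the pathway is known for its part in the inflammatory response to injury and to cytokines. Described here are 10 genes of the system in mouse: the subunits Nfkb1, Nfkb2, Rela, Relb and Rel, the cytoplasmic inhibitors Nfkbia, Nfkbib and Nfkbie, the nuclear inhibitor-like protein gene Nfkbiz, and Tnfaip3, which encodes an enzyme that edits ubiquitin chains and dampens the signal. They were taken as the rows of the table whose Ensembl identifier, without its version, maps to these symbols. All 10 were found among 55822 genes in the table, and all 10 were among the 16140 genes with enough counts to be tested.

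RNA was sequenced from primary mouse aortic smooth muscle cells in 12 libraries, 4 in each of 3 media. In the group called IFNγ/LPS CM, the cells received conditioned medium of bone marrow-derived macrophages that had been primed overnight with 20 ng/mL interferon gamma, stimulated for 4 hours with 100 ng/mL lipopolysaccharide, and washed. In the group called naive CM, the medium came from control macrophages that had been washed likewise. The third group, called regular medium, is labelled only as regular growth medium. Serum at 0.3% and the macrophage growth factor M-CSF at 10 ng/mL were present in both conditioned media. The cells were starved for 48 hours in 0.3% serum and then kept in the conditioned media for 24 hours. The labels do not spell out the serum of the regular medium or whether those cells were starved, so effects of serum, starvation, M-CSF and other macrophage products cannot be told apart where regular medium is compared. Replicates are numbered as biological in the titles, without a word on separate animals or cultures. Each p-value therefore covers only the spread among these libraries, which may be technical in part. Columns of the table name the conditioned media M0 and M1, which were read as naive and IFNγ/LPS, and every direction given here rests on that reading.

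Total estimated counts per library ranged over the 12 libraries between 28097496 and 61493375, and the counts of the 10 genes in a single library between 99 (Nfkbie) and 14735 (Nfkbiz). Log2 CPM correlated across genes at 0.989 to 0.993 between libraries of 1 group and at 0.864 to 0.869 when IFNγ/LPS CM was set against naive CM. Markers fixed for the labelled cell type were only partly present. Acta2, smooth muscle actin, averaged 77.3 ± 3.60 CPM in IFNγ/LPS CM, 220.2 ± 8.05 CPM in naive CM and 280.1 ± 29.9 CPM in regular medium (SD, n = 4 each). The contractile marker Myh11 held only 29, 121 and 141 counts over the libraries of each group in the same order (0.203, 0.592 and 0.716 CPM). The summed level of 10 smooth muscle markers was 257 to 278 CPM in IFNγ/LPS CM, 786 to 878 CPM in naive CM and 1172 to 1303 CPM in regular medium. Of these 10, 0 were higher and 8 lower in IFNγ/LPS CM against naive CM, beside 36.1% and 35.8% of all genes tested. Their median log2 fold change was -1.55. In naive CM against regular medium 3 were higher and 4 lower, beside 18.3% and 16.4% of all genes tested. Cald1 averaged 453 CPM in naive CM and 808 CPM in regular medium, whereas Smtn, Lmod1 and Tpm2 averaged more in naive CM. The summed level of 7 adventitial fibroblast markers was 6717 to 7407 CPM in IFNγ/LPS CM, 1809.7 to 1966 CPM in naive CM and 1643 to 1913 CPM in regular medium. The members of that list went both ways in IFNγ/LPS CM against naive CM, with 3 higher, 3 lower and a median log2 fold change of -0.089. Among all genes tested 36.1% were higher and 35.8% lower in that comparison. The sum was carried by Dcn, at 4674 CPM in IFNγ/LPS CM and 1595 CPM in naive CM, and Ly6a, at 2379 CPM in IFNγ/LPS CM and 215.2 CPM in naive CM, whereas Dpt, Pi16 and Cd34 fell. The sum of 15 macrophage markers was 847 to 960 CPM in IFNγ/LPS CM, 1.64 to 2.10 CPM in naive CM and 1.19 to 1.45 CPM in regular medium. Of these markers 4 had enough counts to be tested, and all 4 rose in IFNγ/LPS CM against naive CM, beside 36.1% of all genes tested. With naive CM and regular medium fitted alone, only 3 passed the count filter. The count of 4 thus rests partly on a filter that took in IFNγ/LPS CM, where these genes are high. Mpeg1 made up nearly all of the sum, at 874 ± 50.6 CPM in IFNγ/LPS CM. Csf1r held 656 counts over the IFNγ/LPS CM libraries and 44 over those of naive CM, Cd68 881 and 209, and Lyz2 67 and 18. The other 11 held between 0 and 12 counts each over the 4 IFNγ/LPS CM libraries together, among them Ptprc with 1, Adgre1 with 2, Spi1 with 3 and C1qa with none.

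The first comparison asked what medium of IFNγ/LPS-treated macrophages did relative to medium of naive macrophages. RNA of all 10 genes was higher in IFNγ/LPS CM, by 2.42-fold for Rel up to 16.8-fold for Nfkbiz, and the groups did not overlap for any of them. Among all genes tested, 36.1% were called higher at an adjusted p of 0.05, 34.9% lay higher without overlap, and 13.9% were called higher with a change of at least 2-fold, as all 10 were here. The median log2 fold change of the 10 genes was 2.35, against 0.0039 over all genes tested. In bulk RNA, fewer cells of a type and less RNA per cell cannot be told apart. The smooth muscle, fibroblast and macrophage marker sums above moved with the same contrast, the fibroblast list with members in both directions, and their part in the result was not tested.

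**Figure D1:**
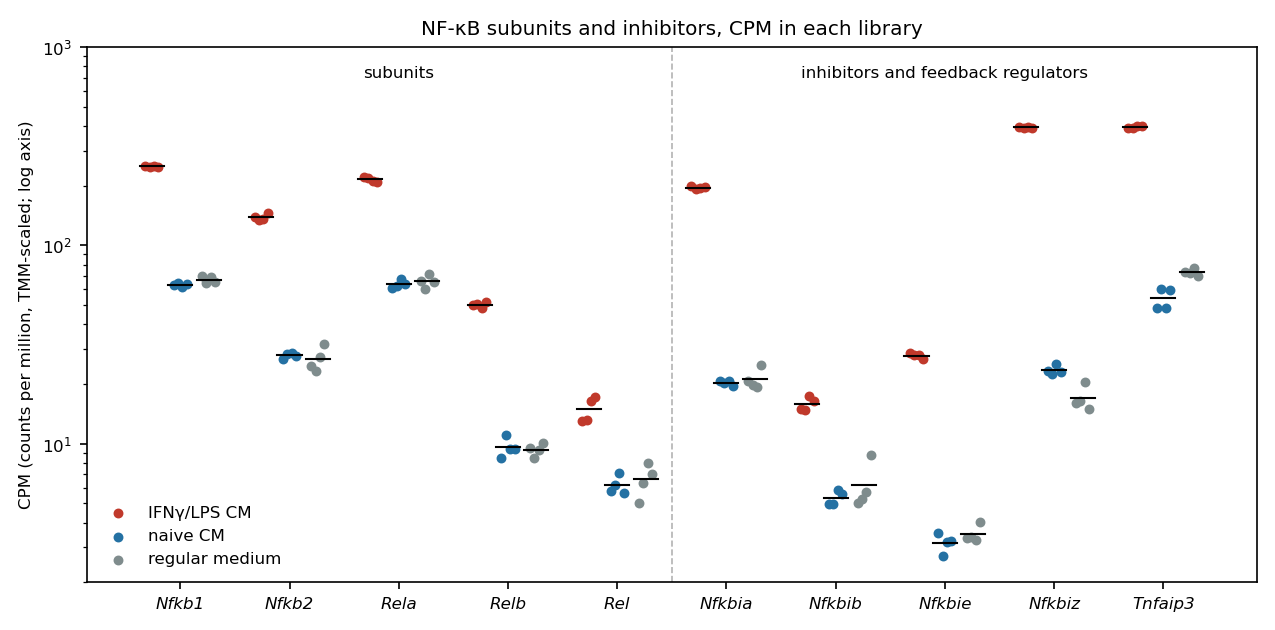
Level of each of the 10 genes in CPM (log axis) in every library, with IFNγ/LPS CM in red, naive CM in blue and regular medium in grey and black lines at the mean of 4 libraries. The red points of every gene sit above all blue and grey points, by the most for Nfkbiz, at 391 to 396 CPM in IFNγ/LPS CM against 22.5 to 25.2 CPM in naive CM.

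Among the subunits, those that are made as long precursors come first. Nfkb1 encodes such a precursor, which is trimmed to a DNA-binding subunit without an activation domain of its own. It stood at 251, 249.6, 252 and 247 CPM in the IFNγ/LPS CM libraries, 63.0, 64.7, 61.8 and 64.2 CPM in the naive CM libraries and 70.0, 64.9, 69.3 and 65.1 CPM in the regular medium libraries. The conditioned media were thus widely separated for this gene, and the naive CM values lay close under those of regular medium. The change in IFNγ/LPS CM over naive CM was 3.94-fold (log2 change 1.98 ± 0.0379 SE, edgeR quasi-likelihood adjusted p = 1.81e-19). Nfkb2 encodes the precursor of the alternative pathway, whose trimmed product pairs mainly with the Relb protein. Its levels were 139, 135, 137 and 146 CPM in IFNγ/LPS CM, 26.6, 28.5, 28.8 and 27.7 CPM in naive CM and 24.7, 23.4, 27.4 and 31.7 CPM in regular medium. Naive CM lay inside the range of regular medium, far below IFNγ/LPS CM. The rise was 4.99-fold over naive CM (log2 change 2.32 ± 0.0734 SE, edgeR adjusted p = 3.61e-14). The span of the Nfkb2 gene overlaps that of AC114539.1, on the opposite strand, by 1292 bases, and AC114539.1 held 2403 counts over the 12 libraries. How much of this overlap is exon in both genes was not examined, so the Nfkb2 level carries some uncertainty.

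The remaining subunits carry activation domains. Rela encodes the main activating subunit of the classical pathway. It had 220.3, 219.4, 211.4 and 208.5 CPM in IFNγ/LPS CM, 61.1, 62.4, 67.5 and 63.5 CPM in naive CM and 66.1, 60.5, 71.5 and 65.5 CPM in regular medium. The 2 lower groups overlapped each other throughout. Rela was 3.38-fold higher in IFNγ/LPS CM than in naive CM (log2 change 1.76 ± 0.0481 SE, edgeR adjusted p = 5.09e-17). Relb, the activating partner in the alternative pathway, had 50.0, 50.6, 48.6 and 51.7 CPM in IFNγ/LPS CM, 8.51, 11.1, 9.37 and 9.44 CPM in naive CM and 9.57, 8.51, 9.29 and 10.0 CPM in regular medium. Again the libraries of naive CM and regular medium were interleaved. Its rise over naive CM was 5.22-fold (log2 change 2.38 ± 0.0729 SE, edgeR adjusted p = 3.00e-16). Rel, best known from lymphoid and myeloid cells, was the scarcest subunit. Its libraries held 13.0, 13.2, 16.4 and 17.1 CPM in IFNγ/LPS CM, 5.78, 6.18, 7.12 and 5.63 CPM in naive CM and 5.03, 6.36, 8.01 and 7.06 CPM in regular medium. The IFNγ/LPS CM libraries fell into a lower and a higher pair, all above the other groups. The change was 2.42-fold over naive CM (log2 change 1.28 ± 0.132 SE, edgeR adjusted p = 1.92e-07), and 11.2% of all genes tested rose by more, against 7.23% for Nfkb1.

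Promoter sequence is shown for genes that moved together, to let the letters around their start sites be read beside the values. RefSeq windows on GRCm38.p6, each of 300 bases with 250 before the annotated start and 50 after it, matched 7 of the 10 genes in 10 windows, and Nfkb1, Relb and Nfkbiz had no entry. The κB consensus was searched on both strands, and some of its matches overlap each other or read on both strands. It was present in 8.46% of 32851 promoter windows and in at least 1 window of 9.55% of 27025 genes. Nfkb2, Rel, Nfkbia, Nfkbie and Tnfaip3 held a κB consensus match and Rela and Nfkbib did not. A match describes these letters only and is no evidence of binding. Capitals mark every κB consensus match in the windows printed here.
The Nfkb2 window at chr19:46304487-46304786, plus strand, shows the most crowded set of matches, with GGGAATTCCC at base -39 from the start, the overlapping GGAATTCCCC at -38 and GGGGCTTTCC at -11.
Nfkb2: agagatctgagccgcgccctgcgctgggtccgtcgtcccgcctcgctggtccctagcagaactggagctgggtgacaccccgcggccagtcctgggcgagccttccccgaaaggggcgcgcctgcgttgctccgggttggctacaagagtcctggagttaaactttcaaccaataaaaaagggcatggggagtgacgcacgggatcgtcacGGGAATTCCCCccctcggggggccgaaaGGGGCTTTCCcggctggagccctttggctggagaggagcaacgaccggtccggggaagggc
The Rel window at chr11:23770920-23771219, minus strand, belongs to the subunit with the smallest rise and also holds a pair of overlapping matches, GGGAAATCCC at -92 and GGAAATCCCC at -91.
Rel: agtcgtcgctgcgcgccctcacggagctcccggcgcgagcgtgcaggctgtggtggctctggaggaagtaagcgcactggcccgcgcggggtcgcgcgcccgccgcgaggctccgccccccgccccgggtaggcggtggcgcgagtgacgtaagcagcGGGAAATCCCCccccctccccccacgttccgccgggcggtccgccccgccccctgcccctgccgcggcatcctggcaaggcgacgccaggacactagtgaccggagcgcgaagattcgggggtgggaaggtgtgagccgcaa
Another Nfkb2 window, at chr19:46305445-46305744 on the plus strand, holds GGGACTTTCC, at base 10 after the start, and GGAATGTCCC at -236. GGGACTTTCC occurs on either strand in 0.155% of all windows. The other matched sequences are rarer, from 0.0396% for GGGAATTCCC to 0.143% for GGGGCTTTCC.
Nfkb2, later start: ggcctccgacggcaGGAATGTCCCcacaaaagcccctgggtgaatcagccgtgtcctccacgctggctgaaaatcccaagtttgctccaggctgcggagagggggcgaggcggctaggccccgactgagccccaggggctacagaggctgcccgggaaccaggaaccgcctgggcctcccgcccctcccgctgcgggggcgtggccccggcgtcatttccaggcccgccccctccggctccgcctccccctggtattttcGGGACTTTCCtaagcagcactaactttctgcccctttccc

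The cytoplasmic inhibitors changed unequally. Nfkbia encodes the classical IκB protein, which binds the Rela pairs and is itself made in response to NF-κB. Its levels were 198, 191, 195 and 198 CPM in IFNγ/LPS CM, 20.6, 20.3, 20.7 and 19.6 CPM in naive CM and 20.7, 19.8, 19.3 and 25.0 CPM in regular medium. Replicate 4 of regular medium was the highest of the 8 lower libraries and still far below any IFNγ/LPS CM library. The change over naive CM was 9.63-fold (log2 change 3.27 ± 0.0626 SE, edgeR adjusted p = 1.77e-19). Nfkbie, an inhibitor that is likewise made anew after activation, had 28.7, 27.9, 27.9 and 26.8 CPM in IFNγ/LPS CM, 3.56, 2.72, 3.21 and 3.22 CPM in naive CM and 3.37, 3.38, 3.26 and 4.05 CPM in regular medium. It was low in both other groups, with overlapping values. Nfkbie rose 8.79-fold over naive CM (log2 change 3.14 ± 0.0886 SE, edgeR adjusted p = 8.07e-17). Nfkbib encodes an inhibitor whose gene is known for responding less to NF-κB. Its libraries had 15.0, 14.8, 17.4 and 16.5 CPM in IFNγ/LPS CM, 4.95, 4.95, 5.84 and 5.61 CPM in naive CM and 5.03, 5.30, 5.73 and 8.74 CPM in regular medium. The groups in conditioned media did not overlap, and replicate 4 of regular medium stood above the other lower libraries. The rise was 2.99-fold over naive CM (log2 change 1.58 ± 0.146 SE, edgeR adjusted p = 9.68e-08). The span of the Nfkbib gene overlaps that of Sirt2, on the opposite strand, by 778 bases, and Sirt2 held 26154 counts over the 12 libraries. How much of this overlap is exon in both genes was not examined. The library kit keeps the strand, but its use in counting is not given in the sources used here, so the Nfkbib level is uncertain.
The windows of the 3 inhibitors are set side by side, with Nfkbia at chr12:55492598-55492897 on the minus strand, Nfkbie at chr17:45555450-45555749 on the plus strand and Nfkbib at chr7:28766595-28766894 on the minus strand. Nfkbia carries GGAAATTCCC at base -29, Nfkbie carries GGGGGATTCC at -106, and no capitals occur in Nfkbib.
Nfkbia: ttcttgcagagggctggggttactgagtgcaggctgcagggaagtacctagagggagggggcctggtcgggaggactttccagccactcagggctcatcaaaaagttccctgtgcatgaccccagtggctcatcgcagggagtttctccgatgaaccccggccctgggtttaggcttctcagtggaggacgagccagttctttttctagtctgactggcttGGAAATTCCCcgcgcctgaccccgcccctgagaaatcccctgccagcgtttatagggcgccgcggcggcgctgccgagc
Nfkbie: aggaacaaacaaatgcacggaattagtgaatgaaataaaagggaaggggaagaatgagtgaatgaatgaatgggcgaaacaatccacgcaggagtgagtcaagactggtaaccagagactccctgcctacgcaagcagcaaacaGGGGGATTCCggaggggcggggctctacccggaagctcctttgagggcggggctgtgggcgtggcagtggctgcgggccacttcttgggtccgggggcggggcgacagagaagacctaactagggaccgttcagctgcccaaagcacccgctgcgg
Nfkbib: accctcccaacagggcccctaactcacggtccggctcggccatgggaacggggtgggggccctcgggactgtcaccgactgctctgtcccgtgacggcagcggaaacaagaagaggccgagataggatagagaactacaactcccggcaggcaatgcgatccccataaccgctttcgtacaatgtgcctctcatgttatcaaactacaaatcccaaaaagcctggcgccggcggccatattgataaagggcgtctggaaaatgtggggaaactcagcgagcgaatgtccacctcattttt

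The last pair of genes acts on the response rather than on the cytoplasmic store. Nfkbiz encodes a nuclear member of the IκB family that is needed for a late set of inflammatory genes. It had 396, 391, 393 and 393 CPM in IFNγ/LPS CM, 23.3, 22.5, 25.2 and 22.9 CPM in naive CM and 16.0, 16.5, 20.4 and 14.9 CPM in regular medium. Here the 3 groups were fully ordered, with every naive CM library above every regular medium library. The rise over naive CM was 16.8-fold (log2 change 4.07 ± 0.0707 SE, edgeR adjusted p = 2.63e-18), and 2.94% of all genes tested rose by more. Tnfaip3 had 390.5, 391, 400.0 and 401 CPM in IFNγ/LPS CM, 48.3, 60.4, 48.6 and 59.8 CPM in naive CM and 73.1, 73.0, 76.5 and 69.7 CPM in regular medium. Naive CM was the lowest of its groups, with a lower and a higher pair of libraries. Tnfaip3 rose 7.27-fold over naive CM (log2 change 2.86 ± 0.0686 SE, edgeR adjusted p = 6.30e-16).
The Tnfaip3 window at chr10:19011914-19012213, minus strand, held no κB consensus match and is not printed. The window at chr10:19015361-19015660 on the minus strand is shown because the gene moved opposite to Nfkbiz in naive CM against regular medium. The capitals are GGGACACCCC at base -125 and GGAAATCCCC at -12.
Tnfaip3: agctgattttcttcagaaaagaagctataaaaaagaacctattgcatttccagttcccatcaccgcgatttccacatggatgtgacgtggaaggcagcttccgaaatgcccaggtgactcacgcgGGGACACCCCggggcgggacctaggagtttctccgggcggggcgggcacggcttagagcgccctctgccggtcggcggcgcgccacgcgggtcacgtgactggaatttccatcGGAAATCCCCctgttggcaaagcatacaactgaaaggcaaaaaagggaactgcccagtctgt

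**Figure D2:**
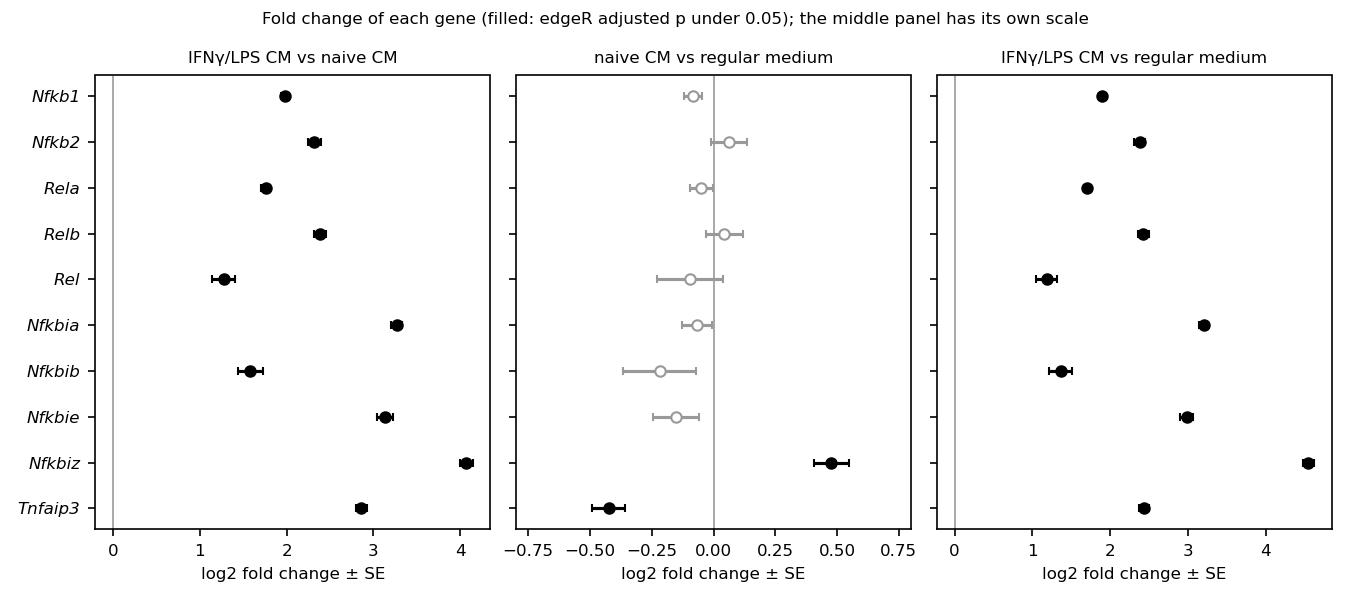
Log2 fold change with its SE for each gene in 3 comparisons, filled where the edgeR adjusted p was under 0.05; the middle panel has a narrower scale. All 10 genes are filled and right of 0 in both comparisons of IFNγ/LPS CM, while only Nfkbiz (0.48) and Tnfaip3 (-0.42) are filled in naive CM against regular medium.

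The second comparison set medium of naive macrophages against regular medium. Of the 10 genes 1 rose and 1 fell: Nfkbiz averaged 23.5 ± 1.17 CPM in naive CM and 17.0 ± 2.40 CPM in regular medium, and Tnfaip3 averaged 54.3 ± 6.78 CPM in naive CM and 73.1 ± 2.79 CPM in regular medium (SD, n = 4 each). The Nfkbiz change was 1.39-fold (log2 change 0.48 ± 0.0697 SE, edgeR adjusted p = 5.21e-05), and that of Tnfaip3 was 1.34-fold lower (log2 change -0.42 ± 0.0658 SE, edgeR adjusted p = 0.000107). Calls at an adjusted p of 0.05 were made for 34.7% of all genes tested in this comparison, so 2 calls among 10 genes are not above that share. For 3 of the 10 genes the groups did not overlap, against 32.7% of all genes tested. The third was Nfkb1, with a log2 fold change of -0.084 that did not pass (edgeR adjusted p = 0.0929).

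The other genes gave log2 fold changes between -0.22 for Nfkbib (edgeR adjusted p = 0.285) and 0.062 for Nfkb2 (edgeR adjusted p = 0.557). Rela was at -0.049 (SE 0.0477), Relb at 0.043, Rel at -0.094, Nfkbia at -0.066 and Nfkbie at -0.15, with edgeR adjusted p-values of 0.461, 0.695, 0.632, 0.445 and 0.221. These values do not show that the levels were equal. The median of the 10 genes was -0.075, against -0.017 over all genes. Of the uncalled genes, 2 depended on a single library: without replicate 4 of regular medium Nfkb2 was called higher in naive CM, at 0.16 (edgeR adjusted p = 0.0285), and without replicate 2 of regular medium Nfkb1 was called lower, at -0.10 (edgeR adjusted p = 0.0482).

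The third comparison, of IFNγ/LPS CM against regular medium, shares its libraries with both others and is given as values beside them. All 10 genes were higher in IFNγ/LPS CM without overlap, where 35.4% of all genes tested were called higher and 32.5% lay higher without overlap. Folds over regular medium were 3.72 for Nfkb1, 5.21 for Nfkb2, 3.27 for Rela, 5.37 for Relb and 2.27 for Rel among the subunits, with edgeR adjusted p-values of at most 4.86e-07. Among the inhibitors they were 9.20 for Nfkbia, 2.57 for Nfkbib and 7.90 for Nfkbie, with edgeR adjusted p-values of at most 4.95e-07. Nfkbiz was 23.4-fold higher (edgeR adjusted p = 8.46e-19) and Tnfaip3 5.42-fold higher (edgeR adjusted p = 4.31e-15). The regular medium level being lower for Nfkbiz and higher for Tnfaip3 than that of naive CM, the fold of Nfkbiz was larger and that of Tnfaip3 smaller here than in the first comparison.

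Ratios of 2 genes within a library need no scaling between libraries, and 4 were set between partners of the system. The first weighed the precursors of the alternative and the classical pathway. Counts of Nfkb2 per count of Nfkb1 were 0.554, 0.541, 0.542 and 0.591 in IFNγ/LPS CM, 0.422, 0.440, 0.466 and 0.432 in naive CM and 0.353, 0.361, 0.395 and 0.488 in regular medium. Counts of Relb per count of Rela were 0.227, 0.230, 0.230 and 0.248 in IFNγ/LPS CM, 0.139, 0.178, 0.139 and 0.149 in naive CM and 0.145, 0.141, 0.130 and 0.153 in regular medium. For both ratios every IFNγ/LPS CM library lay above all others, so the genes of the alternative pathway rose by more than their classical counterparts. The difference of mean log2 ratios between IFNγ/LPS CM and naive CM was 0.34 for Nfkb2 over Nfkb1 (1.27-fold) and 0.64 for Relb over Rela (1.56-fold), each with an exact permutation p of 0.0286, two-sided, the smallest that 4 libraries against 4 can give (0.0429 adjusted over 12 tests).

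The inhibitor gained on its target and on its relative. Nfkbia per Rela was 0.899, 0.873, 0.924 and 0.947 in IFNγ/LPS CM, 0.338, 0.325, 0.307 and 0.309 in naive CM and 0.313, 0.328, 0.271 and 0.382 in regular medium. Nfkbia per Nfkbib was 13.2, 12.9, 11.2 and 12.0 in IFNγ/LPS CM, 4.17, 4.10, 3.55 and 3.50 in naive CM and 4.12, 3.75, 3.37 and 2.87 in regular medium, the denominator being the uncertain gene. The IFNγ/LPS CM libraries again stood apart for both. Against naive CM the log2 differences were 1.51 (2.85-fold) for Nfkbia over Rela and 1.69 (3.23-fold) for Nfkbia over Nfkbib, at the same smallest exact permutation p of 0.0286 (adjusted 0.0429). Against regular medium, which shares the IFNγ/LPS CM libraries, the log2 differences of the 4 ratios were 0.49, 0.72, 1.50 and 1.82 in the order given, at the same exact permutation p. The 0.49 for Nfkb2 over Nfkb1 lost its call when any 1 IFNγ/LPS CM library was left out (exact permutation p = 0.0571). The log2 difference itself then lay between 0.46 and 0.51.

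Between naive CM and regular medium none of these 4 ratios passed. The exact permutation p was 0.229 for Nfkb2 over Nfkb1, 0.514 for Relb over Rela, 0.943 for Nfkbia over Rela and 0.429 for Nfkbia over Nfkbib, two-sided. For the first of them replicate 4 of regular medium, at 0.488, lay above every naive CM library, and without it the log2 difference was 0.25 (exact permutation p = 0.0286). A further ratio, of Nfkbiz to Tnfaip3, was added after the values were seen, because these genes had moved in opposite directions. It was 1.02, 1.00, 0.982 and 0.979 in IFNγ/LPS CM, 0.483, 0.372, 0.518 and 0.383 in naive CM and 0.219, 0.226, 0.267 and 0.214 in regular medium. No group overlapped another, with naive CM between the others. The ratio was 2.29-fold higher in IFNγ/LPS CM than in naive CM and 1.89-fold higher in naive CM than in regular medium, which restates the movement it was chosen for and is given as a description with no test.

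**Figure D3:**
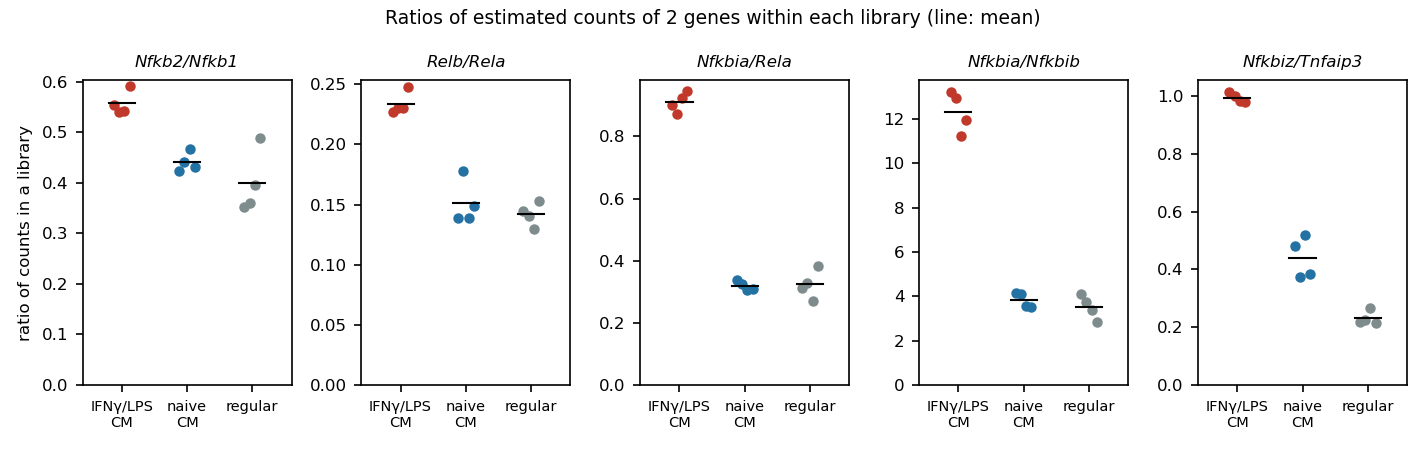
Ratio of the estimated counts of 2 genes in each library (linear axes from 0), for 5 ratios, with IFNγ/LPS CM in red, naive CM in blue, regular medium in grey and lines at the mean of 4 libraries. The red points lie above the rest in all panels, and only Nfkbiz/Tnfaip3 also separates naive CM (0.372 to 0.518) from regular medium (0.214 to 0.267).

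Levels of different genes were compared per kilobase of merged exons. The summed level of the 5 subunits was 136 ± 1.37 CPM per kb in IFNγ/LPS CM, 35.4 ± 1.17 in naive CM and 36.2 ± 2.23 in regular medium (SD, n = 4 each). That of the 3 cytoplasmic inhibitors was 138 ± 2.09 CPM per kb in IFNγ/LPS CM, 16.1 ± 0.395 in naive CM and 17.2 ± 2.48 in regular medium. Inhibitor RNA thus matched subunit RNA on this scale in IFNγ/LPS CM and lay below it in the other groups. Rela made up 51.5 ± 1.09% of subunit RNA in IFNγ/LPS CM, 58.6 ± 1.11% in naive CM and 59.3 ± 1.40% in regular medium. Nfkb2 made up 22.3 ± 0.795%, 17.2 ± 0.167% and 16.1 ± 1.68% in the same order, and Relb 9.51 ± 0.212%, 6.98 ± 0.717% and 6.66 ± 0.330%. The share of Rela was therefore lower, and those of Nfkb2 and Relb higher, in IFNγ/LPS CM, with no overlap of its libraries with either other group. Nfkb1 held 15.2 ± 0.224%, 14.9 ± 0.650% and 15.5 ± 0.859%, with overlapping groups. Rel held 1.47 ± 0.220%, 2.34 ± 0.191% and 2.44 ± 0.393%. Merged exons of Nfkb1 span 12061 bases and its longest transcript 4149, so its share depends on the length used: with the longest transcript it was 31.2%, 30.8% and 31.7%, and summed subunit RNA was 193 CPM per kb in IFNγ/LPS CM, above the 141 of the inhibitors. The directions for Rela, Nfkb2 and Relb were the same with either length.

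Among the cytoplasmic inhibitors Nfkbia dominated in each group. It made up 88.1 ± 0.311% of their summed level in IFNγ/LPS CM, 78.3 ± 1.31% in naive CM and 76.8 ± 1.96% in regular medium. Nfkbib made up 5.32 ± 0.391%, 15.3 ± 1.18% and 16.4 ± 2.17% in the same order of groups. Nfkbie held nearly constant shares of 6.62 ± 0.213%, 6.46 ± 0.636% and 6.74 ± 0.267%, although its level differed several-fold.

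**Figure D4:**
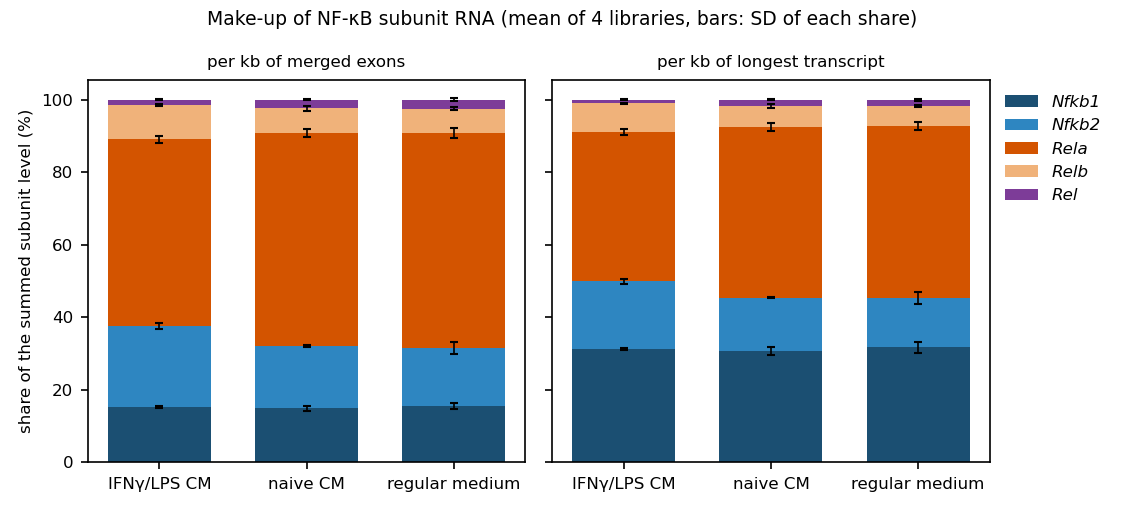
Share of each subunit in the summed RNA level of the 5 subunits (percent, stacked, mean of 4 libraries with the SD of each share), per kilobase of merged exons on the left and of the longest transcript on the right. Rela takes 51.5% in IFNγ/LPS CM, 58.6% in naive CM and 59.3% in regular medium on the left, and the Nfkb1 share is larger on the right in all groups.

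The order of the 10 genes per kilobase of merged exons also differed between media. In IFNγ/LPS CM it ran from Nfkbia at 121.5 CPM per kb through Nfkbiz (78.4), Rela (70.0), Tnfaip3 (54.8), Nfkb2 (30.4), Nfkb1 (20.7), Relb (12.9), Nfkbie (9.14) and Nfkbib (7.34) to Rel (2.00), and no neighbours in this order overlapped. In naive CM Rela led at 20.7 CPM per kb, followed by Nfkbia (12.6), Tnfaip3 (7.51), Nfkb2 (6.09), Nfkb1 (5.26), Nfkbiz (4.68), Relb (2.47), Nfkbib (2.46), Nfkbie (1.04) and Rel (0.828). The neighbours Relb and Nfkbib, and Nfkbie and Rel, overlapped there. In regular medium Rela (21.5), Nfkbia (13.2) and Tnfaip3 (10.1) led, and below them Nfkb2 overlapped Nfkb1, Nfkbiz overlapped Nfkbib, Nfkbib overlapped Relb and Nfkbie overlapped Rel. Nfkbiz was thus the second gene of the order in IFNγ/LPS CM and the sixth in both other groups. With the longest transcript as length Nfkb1 moved up to the second place in naive CM and regular medium, at 15.3 and 16.2 CPM per kb.

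The genes were compared with all others by the distance between log2 CPM profiles over the 12 libraries, each centred on its own mean, so that a small distance means a like pattern and size of change. Nearest to Nfkbia were Psme1, a proteasome activator subunit, and Stx11, a syntaxin, both at 0.300, and Csrnp1 at 0.348. Psme1 averaged 588 CPM in IFNγ/LPS CM, 64.9 CPM in naive CM and 65.3 CPM in regular medium. Nearest to Nfkb2 were Hk1, a hexokinase, at 0.226, the integrin subunit Itga2 at 0.275 and Ogfr at 0.285, and Hk1 averaged 815, 159 and 146 CPM in the same groups. Nearest to Nfkbiz were Tlr3, a receptor for double-stranded RNA, at 0.496, the interferon signal transducer Stat2 at 0.565 and the pore-forming protein gene Gsdmd at 0.613. Profiles of this kind rest mainly on the separation of IFNγ/LPS CM from the other groups, which many genes share.

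The surrounding pathway was read from lists of genes that are no part of the 10. Of 26 receptors and adaptors upstream, 24 rose, 1 fell and 1 missed the test in IFNγ/LPS CM against naive CM, with a median log2 fold change of 1.16, where 36.1% of all genes tested were higher and 35.8% lower. With naive CM and regular medium fitted alone, 25 of the 26 passed the count filter. The largest rises by the naming rule were Cd40, a receptor of the TNF family, and Tlr2, a receptor for bacterial lipoproteins. Cd40 had 713 counts over the IFNγ/LPS CM libraries and 15 over those of naive CM, a depth-adjusted ratio of 67.1 (exact 95% interval 40.4 to 121, counting error only). Tlr2 averaged 201 ± 8.64 CPM in IFNγ/LPS CM and 4.99 ± 0.583 CPM in naive CM (40.9-fold, edgeR adjusted p = 2.04e-22). The exception was Il1r1, the interleukin-1 receptor, at 17.1 ± 0.415 CPM in IFNγ/LPS CM and 27.6 ± 0.936 CPM in naive CM (1.61-fold lower, edgeR adjusted p = 3.66e-10). In naive CM against regular medium 11 receptors and adaptors rose, 3 fell, Il1r1 among them, and 12 missed the test, beside 18.3% higher and 16.4% lower among all genes tested. Without replicate 1 or replicate 2 of regular medium 7 of them rose.

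Kinases of the pathway had a smaller median change. Of 11, 8 rose, 1 fell and 2 missed the test, with a median of 0.42, beside the same 36.1% higher and 35.8% lower among all genes tested. Ikbke, a kinase related to those that act on the inhibitors, averaged 199 ± 9.75 CPM in IFNγ/LPS CM and 21.6 ± 1.38 CPM in naive CM (9.25-fold, edgeR adjusted p = 1.15e-19). Map3k8, which associates with the Nfkb1 precursor protein, averaged 39.6 ± 2.15 CPM and 6.55 ± 0.335 CPM in the same groups (6.06-fold, edgeR adjusted p = 8.30e-17). Tab1, a partner of the upstream kinase Map3k7, was lower at 13.3 ± 0.779 CPM in IFNγ/LPS CM and 19.4 ± 0.252 CPM in naive CM (1.45-fold lower, edgeR adjusted p = 1.30e-07). Of 18 genes of the ubiquitin machinery, 13 rose, 3 fell and 2 missed the test, with a median of 0.37, against the same shares of all genes. Tnip3, whose protein binds that of Tnfaip3, averaged 48.2 ± 3.11 CPM in IFNγ/LPS CM and 1.09 ± 0.101 CPM in naive CM (44.1-fold, edgeR adjusted p = 1.65e-20), and the ubiquitin ligase gene Birc3 averaged 109 ± 6.21 CPM and 12.1 ± 0.863 CPM (9.04-fold, edgeR adjusted p = 1.87e-19). Ube2n, a ubiquitin-conjugating enzyme, was 1.32-fold lower (edgeR adjusted p = 1.33e-07).

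Further inhibitors and nuclear IκB proteins numbered 12, of which 11 had enough counts. In IFNγ/LPS CM against naive CM 7 rose, 2 fell and 2 missed the test, with a median of 0.46, beside 36.1% of all genes tested that were higher and 35.8% that were lower. Zc3h12a, a ribonuclease that degrades inflammatory messenger RNA, averaged 59.9 ± 3.65 CPM in IFNγ/LPS CM and 3.00 ± 0.157 CPM in naive CM (19.9-fold, edgeR adjusted p = 9.38e-19). Bcl3, a nuclear IκB protein that binds the trimmed precursors, averaged 21.4 ± 1.32 CPM and 1.54 ± 0.589 CPM (14.4-fold, edgeR adjusted p = 2.45e-09). Pdlim2, which promotes degradation of the Rela protein, went the other way, at 13.8 ± 0.416 CPM in IFNγ/LPS CM and 89.1 ± 3.18 CPM in naive CM (6.46-fold lower, edgeR adjusted p = 2.56e-19). Known targets of NF-κB numbered 32, of which 28 had enough counts, and 27 were higher and 1 lower, with a median of 5.68, against the same shares. With naive CM and regular medium fitted alone, 19 targets had enough counts. The others passed the count filter only with IFNγ/LPS CM included, so their higher calls were favoured in advance. Both the count of 27 and the median rest partly on them. Saa3, an acute phase protein, had 955288 counts over the IFNγ/LPS CM libraries and 9 over those of naive CM, and Cxcl5, a neutrophil chemokine, had 22349 and 2. Plau, a plasminogen activator, was 2.19-fold lower (edgeR adjusted p = 3.30e-12).

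These lists depend on how the libraries are scaled against each other. Scaled by library totals alone, the median of all genes shifted to -0.38 in IFNγ/LPS CM against naive CM, and the counts became 21 higher and 4 lower for receptors and adaptors, 5 and 4 for kinases, 8 and 7 for ubiquitin machinery, 5 and 3 for the further inhibitors, and 27 and 1 for targets. Under that scaling 20.3% of all genes tested were higher and 58.1% lower. The 10 NF-κB genes all remained higher, with a median of 1.96. In naive CM against regular medium kinases had 2 lower calls and none higher, ubiquitin machinery 1 higher and 3 lower, further inhibitors 2 higher and 2 lower, and targets 10 higher and 4 lower, with medians of -0.087, -0.0090, -0.15 and 0.17, beside the 18.3% higher and 16.4% lower of all genes tested. Some of these small counts moved by 1 gene without a single library. Kinases had 1 lower call without replicate 2 or 4 of naive CM. Ubiquitin machinery had 2 higher calls without replicate 4 of IFNγ/LPS CM, replicate 2 of naive CM or replicate 1 or 4 of regular medium. Further inhibitors had 1 higher call without replicate 2, 3 or 4 of naive CM or replicate 2 or 3 of regular medium.

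**Figure D5:**
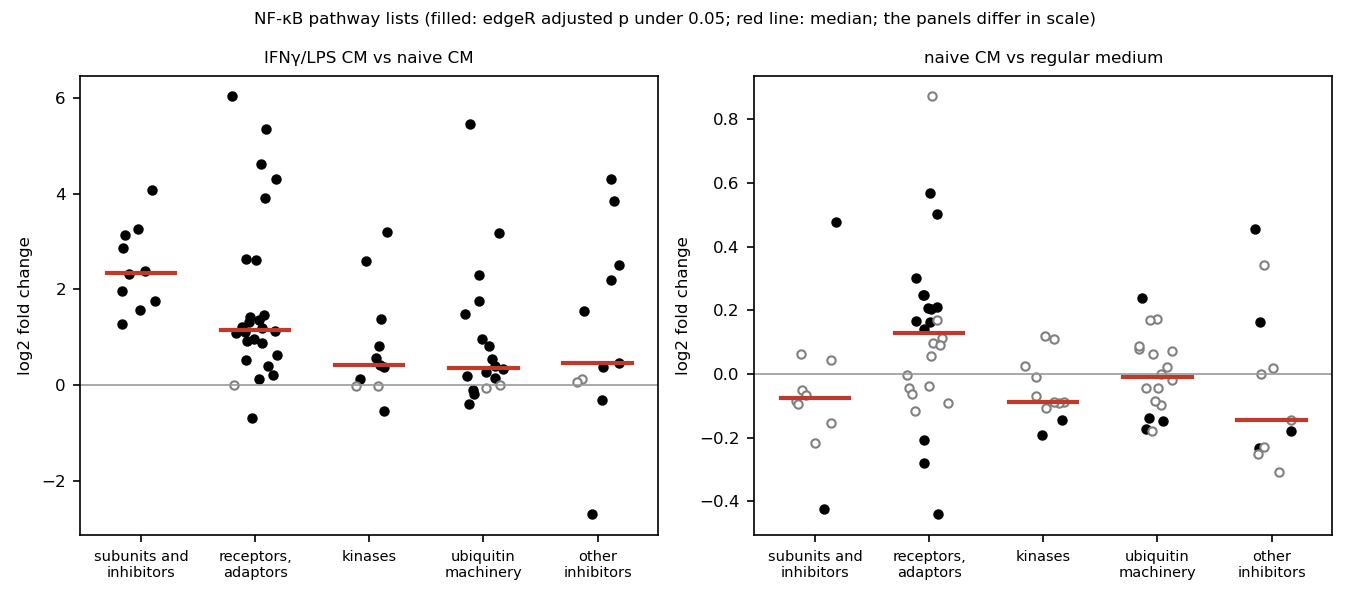
Log2 fold change of each gene of 5 lists in IFNγ/LPS CM against naive CM on the left and in naive CM against regular medium on the right, on different scales, filled where the edgeR adjusted p was under 0.05 and with a red line at the median. On the left the subunits and inhibitors have a median of 2.35 and the other lists medians of 1.16, 0.42, 0.37 and 0.46; on the right all medians lie between -0.15 and 0.13.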

How the data were processed

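RNA was measured in 12 libraries of primary mouse aortic smooth muscle cells. The authors deposited estimated counts (expected counts) per gene as whole numbers, made with Salmon 1.10.1 on mm10 per the submitters' processing notes. For the summing of transcripts, the annotation release and the use of strand the sources used here give nothing. Stranded libraries were read as pairs of 150 bp, per the labels' protocols. Symbols were found for 51344 of 55822 identifiers in GENCODE M21 on GRCm38, and overlaps with other genes were read there. On opposite strands Nfkb2 overlapped AC114539.1 (2403 counts over 12 libraries) and Psd (973), and Nfkbib also Ccer2 (66). Gm43430 (316 counts) overlapped Nfkb1 on the same strand.

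Groups followed the titles, and no table column was left out. In R 4.3.3, genes passing filterByExpr were scaled by TMM and tested with the edgeR 4.0.16 quasi-likelihood F-test, two-sided, in 1 model of 12 libraries with Benjamini-Hochberg adjustment over 16140 genes and a threshold of 0.05. CPM are counts per 1000000 after TMM scaling, and SEs, from the size of the change and its F, are approximate. Genes with 100 or fewer counts in the lower group are given as summed counts, with an exact 95% interval of counting error where a ratio is printed. Log2 ratios within libraries were compared by exact permutation. Alternatives were DESeq2 1.42.0 size factors and Wald test, limma 3.58.1 voom, library totals, other filters, a fit of only the groups compared, a replicate block, another length, a pseudocount and leaving out each library. The edgeR code was run on simulated counts in which only a small part of the genes changed. Far more genes were called in these data, so that run cannot decide whether the scaling holds here.

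The 10 genes and all lists were chosen with earlier results of these data known. All 10 were named whatever their result, and from each other pathway list the 2 largest rises and the largest fall that passed in IFNγ/LPS CM against naive CM and reached a mean of 1 CPM in either group. For Nfkbia, Nfkb2 and Nfkbiz the 3 nearest profiles were named. Markers of endothelium (summed 2.54 to 3.39 CPM in IFNγ/LPS CM, 1.46 to 1.73 CPM in naive CM and 1.17 to 1.94 CPM in regular medium) and of lymphocytes (at most 0.0277, 0.0208 and 0.0859 CPM) were low in each group.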

Additional observations from a re-analysis of the deposited data

Results flagged for a closer look

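Of 30 sets of 4 library values, 10 genes in 3 media, 1 held a library far from the rest of its group. Nfkbie stood at 4.05 CPM in replicate 4 of regular medium, against 3.26 to 3.38 CPM in the other libraries of that medium. The gap was 0.852 of the whole range of the group, above Dixon's critical value at 95%. Chance alone gives such a gap in about 1 of 20 groups. The same library was also the highest of its group for Nfkb2, Relb, Nfkbia and Nfkbib, and the lowest for Nfkbiz (14.9 CPM) and Tnfaip3 (69.7 CPM). The Nfkbie change in IFNγ/LPS CM over regular medium kept its call without it.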

How the results depend on the processing

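In both comparisons of IFNγ/LPS CM all 10 genes were called higher under each of 20 alternatives, and in naive CM against regular medium Nfkbiz (0.42 to 0.56) and Tnfaip3 (-0.48 to -0.36) kept their calls under all 20, at adjusted p-values of at most 0.000534 and 0.00185. Scaling by library totals changed the calls over all genes to 3279 higher and 9371 lower in IFNγ/LPS CM against naive CM (5830 and 5781 with TMM) and to 3279 higher and 9597 lower against regular medium (5712 and 5882), since it puts the median of all genes at -0.38 and -0.41, a shift of -0.39 in each. Leaving out each library gave 5650 to 6000 higher and 5617 to 5958 lower genes in the first comparison, 2544 to 3008 and 2139 to 2732 in naive CM against regular medium, and 5557 to 5822 and 5662 to 5916 in the third. In naive CM against regular medium the NF-κB genes called were 1 to 2 higher and 1 to 2 lower. Uncalled log2 fold changes of that comparison crossed 0: Relb -0.0375 (without naive CM replicate 2) and -0.00337 (without regular medium replicate 2) in a range of -0.0375 to 0.11, Nfkb2 -0.00134 (without regular medium replicate 2) to 0.16, Rel -0.21 to 0.000869 (without regular medium replicate 3) and Nfkbia -0.10 to 0.0206 (without regular medium replicate 4). Log2 ratios ranged over left-out libraries between 0.44 and 0.59 for Nfkb2/Nfkb1 in IFNγ/LPS CM against regular medium, and in naive CM against regular medium between 0.10 and 0.25 for Nfkb2/Nfkb1 and between -0.0892 and 0.0771 for Nfkbia/Rela; the causes were not tested. With the longest transcript as length, the shares in IFNγ/LPS CM, naive CM and regular medium were 31.2, 30.8 and 31.7% for Nfkb1, 18.8, 14.6 and 13.6% for Nfkb2, 41.0, 47.1 and 47.4% for Rela, 7.96, 5.89 and 5.58% for Relb and 1.04, 1.66 and 1.73% for Rel. Libraries of the same number did not deviate together (correlations of -0.0637 to 0.0679 over 12 pairs, none over 0.1), so the numbers were not taken as pairs. The replicate block gave 5839 higher and 5814 lower genes in the first comparison, 2995 and 2785 in the second and 5726 and 5884 in the third, and changed no call of the 10 genes. Depth limited Nfkbie most, at 99 to 229 counts per library outside IFNγ/LPS CM.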
